A study of Mus musculus with 6 samples.

Results

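The Toll-like receptor genes measured in mouse brown adipose tissue (BAT) were taken from a gene-level table of 47729 genes by their symbols, and 10 were found: Tlr1, Tlr2, Tlr3, Tlr4, Tlr5, Tlr6, Tlr7, Tlr8, Tlr9 and Tlr13. All 10 had enough counts to be tested, beside 17668 tested genes in all. BAT came from male wild type C57BL/6J mice that were fed from the age of 6 weeks to 10 weeks either a standard low-fat diet (LFD) or a 45% high-fat diet (HFD). Each diet had 3 mice, numbered 1 to 3 in the labels, picked from the 5 mice of the group to span its range of fat mass, from greatest to least, although the rank of each number was not stated. Total RNA from the right interscapular depot was depleted of ribosomal RNA and sequenced as single-end reads of 75 bases, and the total was 17156991 to 21603487 counts per mouse. The comparison asks how 4 weeks of HFD feeding altered the expression of genes in BAT.

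Toll-like receptors are membrane proteins that recognize molecules of bacteria and viruses, and some products of damaged cells, through a horseshoe of leucine-rich repeats. Ligand binding pairs the receptor chains, and their inner TIR domains recruit the adaptors Myd88 or Ticam1, which lead to NF-kB, AP-1 and interferon regulatory factors and so to cytokines. One set of receptors sits at the cell surface and senses lipopeptides, lipopolysaccharide or flagellin, and another sits in endosomes and senses nucleic acids. In adipose tissue the receptors are carried by macrophages and other immune cells, and several are also found on adipocytes.

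Tlr5, the flagellin receptor, was the 1 member with a negative log2 fold change, and its transcript level in the HFD-fed mice was lower without overlap, at 2.29 ± 0.544 TPM against 7.66 ± 2.34 TPM in the LFD-fed mice (SD, n = 3 each). The other 9 members had positive log2 fold changes of their counts, from 0.32 for Tlr3 to 1.63 for Tlr13, a receptor for bacterial ribosomal RNA, and the spread between mice was large for most of them. No member passed the study's rule for a changed gene, which asks for an absolute log2 fold change of more than 1.5 together with an adjusted p below 0.01. That rule called 0 of all tested genes higher and 0 lower with edgeR's quasi-likelihood test, which is 0% in each direction. The study applied its rule with DESeq2, not edgeR. Run here on the same counts, DESeq2 called 411 genes at these thresholds. They were 0.523% of the genes it could adjust in the higher direction and 1.5% in the lower. The family had 9 of 10 members on the positive side, where 45.6% of all tested genes were (54.4% were on the negative side), and a median log2 fold change of 0.83 where that of all genes was -0.05. In these bulk samples more cells that carry a receptor and more of its RNA per cell cannot be told apart.

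**Figure D1:**
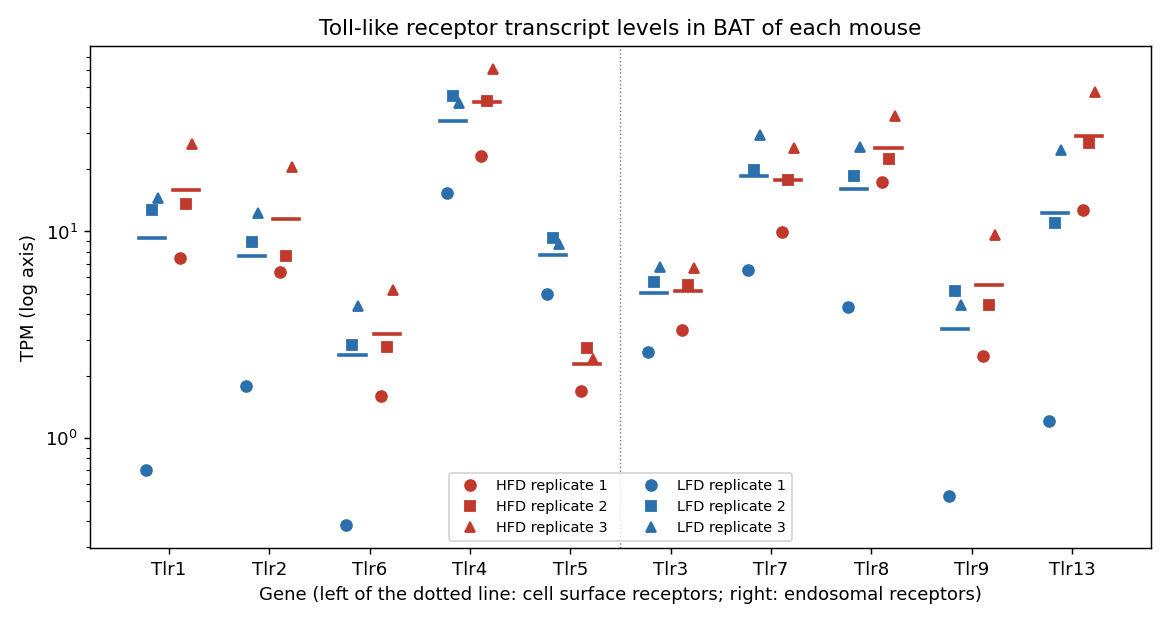
TPM (length-corrected transcript level, log axis) of the 10 Toll-like receptor genes in each mouse, with blue points for LFD-fed and red points for HFD-fed mice, marker shapes for replicate numbers and bars for the means of 3 mice. Tlr5 is the gene whose diets do not overlap, from 1.69 to 2.75 TPM in HFD-fed and from 4.98 to 9.27 TPM in LFD-fed mice, and LFD replicate 1 is the lowest mouse for the other 9 genes.

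Tlr5 (ENSMUSG00000079164, chromosome 1, 182954788 to 182976044 of GRCm38, plus strand) was at 1.69, 2.75 and 2.43 TPM in the HFD-fed mice numbered 1, 2 and 3. The LFD-fed mice, in the same order, had 4.98, 9.27 and 8.73 TPM. Every HFD-fed mouse was below every LFD-fed mouse, and the gap between the diets was 1.14 on the log2 CPM scale. These levels rested on 101, 122 and 118 counts in the HFD-fed mice and on 245, 351 and 266 counts in the LFD-fed mice, so that counting error was small beside the difference. The exact 95% Poisson interval was 101 to 146 for the highest HFD count and 215 to 278 for the lowest LFD count. The log2 fold change was -1.45 (SE 0.24), a level 2.73-fold higher in LFD-fed mice. Its adjusted p was 0.170 (edgeR quasi-likelihood test), the smallest of any gene, which Tlr5 shared as the gene of rank 43 by unadjusted p. The differences between mice of the same number were alike, at -1.43, -1.502 and -1.35 for the pairs 1, 2 and 3 on the log2 CPM scale. DESeq2 gave a fold change of -1.44 and an adjusted p of 3.45e-05, which passes the threshold on p but not that on size. At both thresholds DESeq2 called 0.523% of the genes it could adjust higher and 1.5% lower, and no member.

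The position of Tlr5 in the family differed between the diets as well. It made up 1.96%, 1.88% and 1.01% of the summed TPM of the 10 genes in HFD replicates 1 to 3, and 12.96%, 6.69% and 5.07% in LFD replicates 1 to 3. The shares of the diets did not overlap, and the exact two-sided permutation p was 0.1, the smallest that 3 against 3 mice allow. Divided by the same sum, 31.4% of all tested genes were lower with HFD without overlap. Shares and ratios of Tlr5 rest on the same Tlr5 values as above and are not further evidence. Set against Tlr4 in the same mouse, Tlr5 was at 0.0398 to 0.0733 of its TPM in HFD-fed and at 0.206 to 0.324 in LFD-fed mice.

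Promoter sequence is shown for Tlr5, which was lower in every HFD-fed mouse, and for Tlr13, Tlr1 and Tlr8. The log2 CPM of Tlr13, Tlr1 and Tlr8 was higher in every HFD-fed mouse, a separation that was lost in TPM. Tlr3 had the same pattern, with a gap of 0.12 between the diets in log2 CPM, and its sequence is not shown. Each line gives the 250 bases before the RefSeq transcript start of GRCm38.p6, 5′ to 3′ on the strand of the gene, with matches to the searched motifs in capitals.
Tlr5, chr1:182954538-182954787, plus strand: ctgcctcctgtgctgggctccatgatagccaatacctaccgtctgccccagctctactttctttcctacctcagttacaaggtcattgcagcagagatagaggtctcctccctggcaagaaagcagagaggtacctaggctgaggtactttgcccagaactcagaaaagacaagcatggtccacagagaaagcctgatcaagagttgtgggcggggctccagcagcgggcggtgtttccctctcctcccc
Tlr13, chrX:106143025-106143274, plus strand: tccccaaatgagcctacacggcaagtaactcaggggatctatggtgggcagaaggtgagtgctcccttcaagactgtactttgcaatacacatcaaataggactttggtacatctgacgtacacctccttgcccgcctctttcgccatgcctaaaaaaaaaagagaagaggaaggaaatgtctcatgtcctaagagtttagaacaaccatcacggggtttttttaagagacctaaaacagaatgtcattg
Tlr1, chr5:64933559-64933808, minus strand: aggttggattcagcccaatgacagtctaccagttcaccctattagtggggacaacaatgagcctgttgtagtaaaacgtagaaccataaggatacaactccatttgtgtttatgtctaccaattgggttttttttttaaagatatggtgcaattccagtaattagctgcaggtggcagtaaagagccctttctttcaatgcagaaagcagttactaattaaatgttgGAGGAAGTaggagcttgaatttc
Tlr8, chrX:167264330-167264579, minus strand: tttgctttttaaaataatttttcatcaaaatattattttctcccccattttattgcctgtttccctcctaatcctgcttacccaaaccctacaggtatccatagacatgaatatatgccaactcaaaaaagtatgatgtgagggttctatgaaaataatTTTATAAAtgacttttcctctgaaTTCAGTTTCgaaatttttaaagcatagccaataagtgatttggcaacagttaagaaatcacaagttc

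The search covered 5 motifs on both strands of windows of 300 bases, from 250 before to 50 after the start, and RefSeq windows matched 8 of the 10 members with 10 windows in all, since Tlr1 and Tlr6 have a pair each. The windows of Tlr5, Tlr2 and Tlr13 and the inner window of Tlr1 held none of the letters searched. The PU.1 motif GAGGAAGT, bound by a factor of myeloid cells, occurred in the outer window of Tlr1, from 23 bases before the start, and in the window of Tlr9 just after it, where 3.20% of all 32841 promoter windows hold it. The interferon response element GAAANNGAA occurred in the window of Tlr8, in capitals above as its reverse complement, and as overlapping matches in the inner window of Tlr6, against 8.56% of all windows. The NF-kB motif GGGANTTTC occurred in the window of Tlr3, against 1.11% of all windows. The AP-1 motif TGANTCA, which reads alike on both strands, occurred in that of Tlr9, against 7.81%. The letters TATAAA occurred in the window of Tlr8, as overlapping matches on both strands, and in the outer window of Tlr6, against 13.6%. These are matches of letters and no measure of binding.

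Tlr2 pairs with Tlr1 or Tlr6 to recognize bacterial lipopeptides, and all 3 had positive fold changes with wide errors. Tlr2 (chromosome 3, 83836272 to 83841767, minus strand) was at 6.40, 7.61 and 20.5 TPM in HFD replicates 1 to 3 and at 1.80, 8.90 and 12.3 TPM in LFD replicates 1 to 3. The diets overlapped, since HFD replicates 1 and 2 were below LFD replicates 2 and 3. The log2 fold change was 0.94 (SE 0.54, adjusted p = 0.627 by edgeR), and it was 0.46 without HFD replicate 3 and 0.56 without LFD replicate 1.

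Tlr1 (chromosome 5, 64924679 to 64933563, minus strand), the partner for triacylated lipopeptides, was at 7.42, 13.6 and 26.4 TPM in HFD-fed and at 0.70, 12.7 and 14.6 TPM in LFD-fed mice. LFD replicate 1 stood far below all others, with 19.98 counts. The log2 fold change was 1.43 (SE 0.84, adjusted p = 0.631 by edgeR), and without that mouse it was 0.89. Every HFD-fed mouse was above every LFD-fed mouse in TMM-normalized log2 CPM, by a gap of 0.37, but not in TPM.

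Tlr6 (chromosome 5, 64952031 to 64960097, minus strand), the partner for diacylated lipopeptides, was at 1.60, 2.78 and 5.20 TPM in HFD-fed and 0.38, 2.83 and 4.37 TPM in LFD-fed mice. Its mean TPM over all 6 mice was the lowest of the members, although Tlr5 was below it in HFD replicates 2 and 3. The log2 fold change was 0.81 (SE 0.64, adjusted p = 0.757 by edgeR), the highest adjusted p of the family, and it was 0.34 without LFD replicate 1 and 1.42 without LFD replicate 3. Tlr1 and Tlr6 lie 18467 bases apart and share sequence: 340 windows of 75 bases, 10.3% of those of Tlr1 and 9.25% of those of Tlr6, occur in transcripts of both. The division of reads between them is therefore an estimate, for which the deposited posterior SD reached 5.08 counts for Tlr1 and 4.13 counts for Tlr6. Within a mouse, Tlr1 was 4.64, 4.88 and 5.08 times as high as Tlr6 in TPM with HFD and 1.84, 4.48 and 3.33 times as high with LFD. The ratios did not overlap (exact two-sided permutation p = 0.1, the smallest possible), and the highest LFD ratio lay close to the lowest HFD ratio. In expected counts the ratios overlapped, at 3.16 to 4.45 with HFD and 1.11 to 3.20 with LFD. The effective length of Tlr1 varied between mice by 1.56 times and that of Tlr6 by 1.33 times.

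Tlr4, which senses lipopolysaccharide and is the receptor most often discussed for saturated fat, was the most abundant member in every mouse. It (chromosome 4, 66827584 to 66930284, plus strand) was at 23.1, 42.5 and 61.1 TPM in HFD replicates 1 to 3 and at 15.4, 45.0 and 41.8 TPM in LFD replicates 1 to 3. The diets overlapped on every scale. The log2 fold change was 0.45 (SE 0.30, adjusted p = 0.691 by edgeR), it was 0.19 without HFD replicate 3 and 0.28 without LFD replicate 1, and the difference between the mice numbered 2 was -0.02 on the log2 CPM scale. The share of Tlr4 in the family was 25.4% to 29.1% with HFD and 24.2% to 40.1% with LFD. Tlr2 was at 0.179 to 0.336 of the TPM of Tlr4 with HFD and at 0.117 to 0.293 with LFD. Tlr13 was at 0.554 to 0.768 of it with HFD and at 0.0793 to 0.592 with LFD. Both ratios overlapped between the diets (exact two-sided permutation p = 0.5 and 0.2). How often ratios of other gene pairs overlap was not examined.

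Among the endosomal receptors, Tlr3 (chromosome 8, 45395665 to 45411080, minus strand), the receptor for double-stranded RNA, differed least. It was at 3.36, 5.49 and 6.68 TPM in HFD-fed and at 2.63, 5.69 and 6.73 TPM in LFD-fed mice, with a log2 fold change of 0.32 (SE 0.22, adjusted p = 0.697 by edgeR), or 0.21 without LFD replicate 1. In log2 CPM the diets were separated by 0.12, and in TPM they overlapped. An antisense gene, Gm45542, overlaps Tlr3 and shares 4.28% of its windows of 75 bases on the opposite strand, so that reads of the 2 genes can be mixed if strand was not used in counting.

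Tlr7 and Tlr8 are neighbours on the X chromosome, 40599 bases apart, and recognize single-stranded RNA, although the role of Tlr8 in mice is less settled. Tlr7 (167304929 to 167330558, minus strand) was at 9.95, 17.7 and 25.3 TPM in HFD-fed and 6.48, 19.7 and 29.3 TPM in LFD-fed mice. Tlr8 (167242696 to 167264329, minus strand) was at 17.4, 22.4 and 36.1 TPM in HFD-fed and at 4.31, 18.5 and 25.5 TPM in LFD-fed mice. The log2 fold changes were 0.50 (SE 0.36, adjusted p = 0.724) for Tlr7 and 0.86 (SE 0.42, adjusted p = 0.547) for Tlr8 in edgeR. Without LFD replicate 1 they were 0.21 and 0.50, and for Tlr7 the value was 0.29 without HFD replicate 3 and 0.77 without LFD replicate 3. For Tlr7 the mean TPM was lower with HFD, at 17.6 ± 7.68 against 18.5 ± 11.4 TPM (SD, n = 3 each), although the log2 fold change of its counts was positive.

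The ratio of these neighbours, taken within each mouse, did not overlap between the diets. How often ratios of other gene pairs separate was not examined. Tlr8 was 1.75, 1.27 and 1.43 times as high as Tlr7 in TPM in HFD replicates 1 to 3, and 0.665, 0.936 and 0.872 times as high in LFD replicates 1 to 3. In TPM Tlr8 was thus above Tlr7 in all 3 HFD-fed mice and below it in all 3 LFD-fed mice. The exact two-sided permutation p was 0.1, the smallest possible. The effective length that RSEM assigned, which enters TPM, varied between mice from 2478 to 3347 bases for Tlr7 and from 1970 to 2641 bases for Tlr8. In expected counts the ratio of Tlr8 to Tlr7 was 0.983 to 1.07 with HFD and 0.628 to 0.898 with LFD. In counts Tlr8 was therefore not above Tlr7 in every HFD-fed mouse.

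Tlr9 (chromosome 9, 106222598 to 106226883, plus strand), the receptor for unmethylated CpG DNA, was at 2.51, 4.42 and 9.57 TPM in HFD-fed and at 0.53, 5.15 and 4.43 TPM in LFD-fed mice. The diets overlapped, and the log2 fold change was 1.04 (SE 0.64, adjusted p = 0.657 by edgeR). It was 0.57 without HFD replicate 3 and 0.60 without LFD replicate 1. LFD replicate 1 had 32 counts, with an exact 95% Poisson interval of 21.9 to 45.2.

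Tlr13 (chromosome X, 106143204 to 106160493, plus strand) had the largest positive fold change of the family. It was at 12.8, 26.8 and 46.9 TPM in HFD replicates 1 to 3 and at 1.22, 10.9 and 24.7 TPM in LFD replicates 1 to 3. In each same-numbered pair the HFD-fed mouse was higher, by 3.50, 1.495 and 1.27 on the log2 CPM scale. The log2 fold change was 1.63 (SE 0.77, adjusted p = 0.528 by edgeR), a 3.09-fold higher level, and it was 1.12 without LFD replicate 1 and 2.46 without LFD replicate 3. In log2 CPM the diets were separated by 0.14, while in TPM HFD replicate 1 was below LFD replicate 3. Beside Tlr5 in the same mouse, Tlr13 was 7.55, 9.74 and 19.3 times as high in TPM with HFD and 0.245, 1.18 and 2.83 times as high with LFD. Tlr13 had the most positive and Tlr5 the only negative fold change of the family, so this ratio restates those values and adds no evidence. Tlr13 made up 14.8% to 19.5% of the summed TPM of the family with HFD and 3.18% to 14.3% with LFD.

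**Figure D2:**
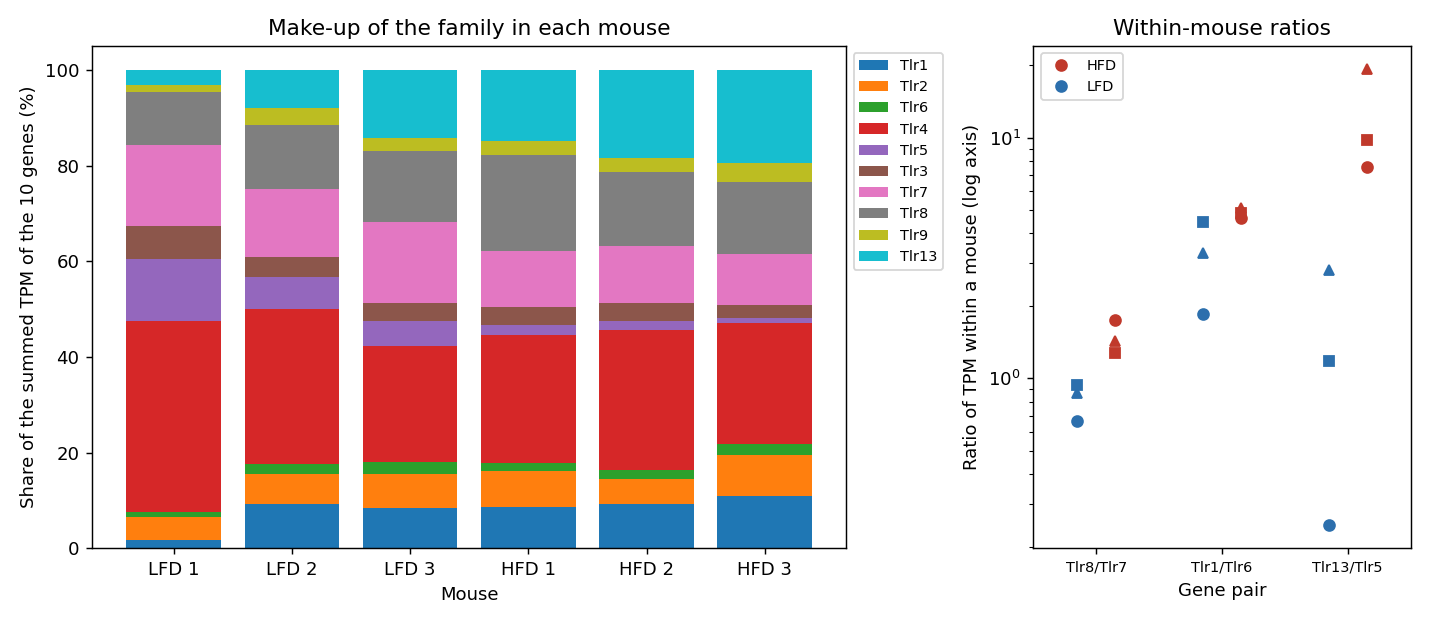
Left, the share of each gene in the summed TPM of the 10 Toll-like receptor genes in each mouse. Right, the ratio of TPM of 3 gene pairs within each mouse on a log axis, with blue points for LFD and red points for HFD and the marker shapes of the replicate numbers (circle 1, square 2, triangle 3). Ratios to Tlr4, of which those of Tlr2 and Tlr13 overlapped between the diets, are not shown. The pair Tlr13/Tlr5 joins the members with the most positive and the only negative fold change. The band of Tlr5 is 1.01% to 1.96% with HFD and 5.07% to 12.96% with LFD, and Tlr8 exceeds Tlr7 only in the HFD-fed mice.

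The summed TPM of the family was 86.1, 145.9 and 240.3 in HFD replicates 1 to 3 and 38.4, 138.6 and 172.3 in LFD replicates 1 to 3, so the diets overlapped, with a p of 0.5 in an exact two-sided permutation test. The cell surface receptors held 46.6% to 48.1% of this sum with HFD and 47.4% to 60.5% with LFD, and the exact permutation p was 0.3. Shares of this sum add up to a fixed total, so that 1 gene moves the others. Without overlap between the diets, Tlr8 and Tlr13 had higher shares with HFD, where 1.84% of all tested genes were higher when divided by the same sum, and Tlr3, Tlr5 and Tlr7 had lower ones, where 31.4% of all genes were lower. The lowest LFD share of Tlr3, 3.91%, was within 0.01 percentage points of its highest HFD share.

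By mean TPM over the 6 mice the order was Tlr4 at 38.1, Tlr8 at 20.7, Tlr13 at 20.6, Tlr7 at 18.1, Tlr1 at 12.6, Tlr2 at 9.58, Tlr3 at 5.10, Tlr5 at 4.98, Tlr9 at 4.44 and Tlr6 at 2.86. Neighbours in this order were compared within mice, in 9 exact paired permutation tests. Tlr4 was above Tlr8, and Tlr9 above Tlr6, in 6 of 6 mice (exact p = 0.0312, the smallest that 6 mice allow, and 0.141 after adjustment), by a mean of 0.99 ± 0.51 and 0.59 ± 0.32 on the log2 scale (SD, n = 6). For the other 7 pairs of neighbours the exact permutation p was 0.0625 to 0.719, and neither gene was higher in all 6 mice. The place of Tlr5 varied most, from 3 in its best mouse to 10 in its worst.

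Of the 10 members, 5 had values of log2 CPM (TMM normalization) that did not overlap between the diets, where 15.9% of all tested genes did not overlap. The 4 that were higher in HFD-fed mice were Tlr1, Tlr3, Tlr8 and Tlr13, where the share of all genes was 6.72%, and Tlr5 was lower, where it was 9.23%. These 4 separations were lost in TPM, in which Tlr5 alone remained and 1.65% of all genes were higher and 11.6% lower. They were also lost in log2 CPM without normalization factors. TPM with limma moved the median log2 fold change of all genes to -0.18, and that of the 10 members was then 0.50. At an unadjusted p under 0.05, a level that 3.86% of all tested genes passed upward and 6.62% downward in edgeR, 0 members were higher and 1, Tlr5, was lower.

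The labels number the mice but state no pairing. They were taken as pairs because deviations of same-numbered mice from their diet means correlated at 0.229 to 0.522 in these same data. The mitochondrial share of counts fell with the number in both diets. It was 22.7%, 16.5% and 8.50% with HFD and 13.8%, 9.12% and 3.87% with LFD. Whether the numbers stand for pairs or for such library features was not tested. Adding the replicate number to the model as a block raised the count of tested genes with an unadjusted p under 0.05 from 1851 to 3094. In that fit 3 members passed this level: Tlr5 (log2 fold change -1.44, adjusted p = 0.0585), Tlr13 (2.05, adjusted p = 0.149) and Tlr8 (0.99, adjusted p = 0.244), by edgeR. The shares of all genes were then 8.75% upward and 8.76% downward. In log2 CPM, 6 members were higher with HFD in all 3 same-numbered pairs, where 21.1% of all genes were, and Tlr5 was lower in all 3, where 21.3% were. Tlr2, Tlr4 and Tlr9 were higher in 2 of the 3 pairs.

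**Figure D3:**
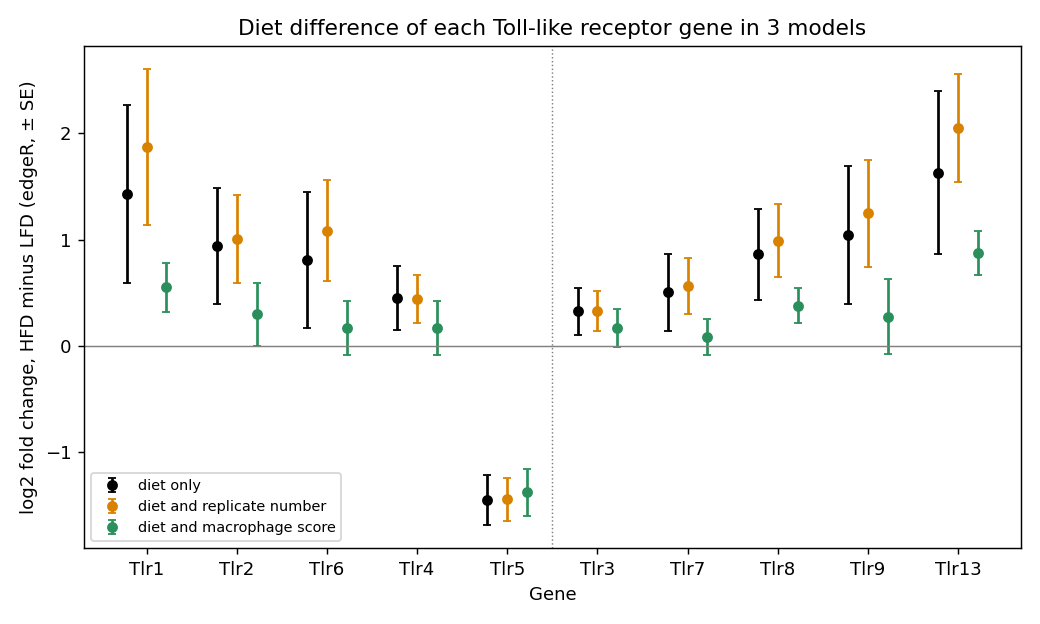
Log2 fold change of each Toll-like receptor gene, HFD minus LFD, with its SE, from edgeR fits to diet alone (black), diet with the replicate number as a block (orange) and diet with the macrophage score (green). Tlr5 lies between -1.45 and -1.38 in all 3 fits, while the values of Tlr13 are 1.63, 2.05 and 0.88. A fit with the muscle score is not shown. In it Tlr5 was at -1.02, Tlr13 at -0.10, and Tlr8 alone was positive.

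LFD replicate 1 was the lowest mouse for the 9 members other than Tlr5 in both TPM and log2 CPM, and HFD replicate 3 was the highest in log2 CPM for the same 9. The macrophage score, the mean log2 CPM of 12 macrophage genes such as Adgre1, Csf1r and Cd68, was also lowest in LFD replicate 1, at 6.11 against 7.34 to 7.88 in the other mice. Of the 12 macrophage genes 8 had positive fold changes, with a median of 0.32, and none was at 0 in a mouse. Their summed CPM was 2979 to 4639 with HFD and 1336 to 4157 with LFD and overlapped. Without LFD replicate 1 the median log2 fold change of the 10 members was 0.42, and with the macrophage score as a covariate it was 0.22, against 0.83 with diet alone.

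Values relative to the macrophage score divided the family. Tlr7 had the same mean in both diets, -2.09 on the log2 scale, and Tlr4 differed by -0.13 and Tlr3 by -0.24. Tlr13 was higher by 1.52 with HFD, Tlr1 by 1.45 and Tlr8 by 0.43, and Tlr5 was lower by 1.99, each without overlap and with an exact two-sided permutation p of 0.1, the smallest possible. For Tlr1 the value was -5.65 in LFD replicate 1, which had 19.98 counts, and -3.38 and -3.47 in LFD replicates 2 and 3. On this scale 2.77% of all tested genes were higher and 18.5% lower without overlap. With the score as a covariate in edgeR, the log2 fold change was 0.88 (SE 0.21, adjusted p = 0.106) for Tlr13 and -1.38 (SE 0.22, adjusted p = 0.0894) for Tlr5. The other 8 members had log2 fold changes of 0.09 to 0.55 in that fit, the highest being that of Tlr1 (SE 0.23, adjusted p = 0.265 by edgeR).

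**Figure D4:**
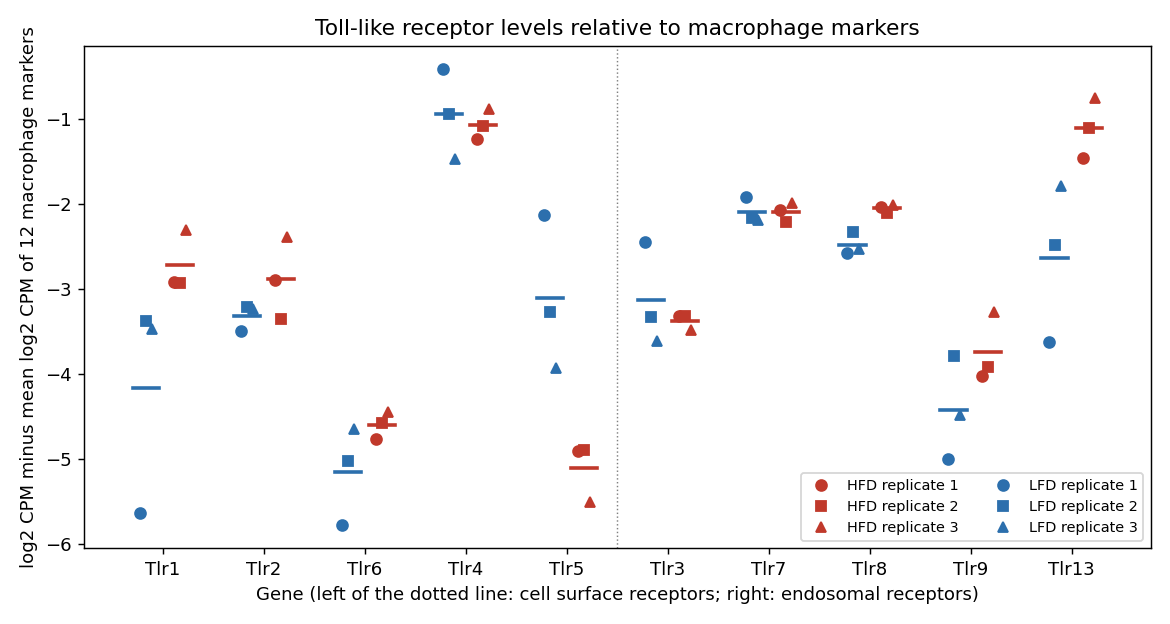
Log2 CPM of each Toll-like receptor gene minus the mean log2 CPM of 12 macrophage genes in the same mouse, with blue points for LFD-fed and red points for HFD-fed mice and bars for the means of 3 mice. Tlr7 has the same mean in both diets, Tlr1, Tlr8 and Tlr13 are higher in every HFD-fed mouse, and Tlr5 is lower in every HFD-fed mouse.

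Genes of other cells moved with diet too. The summed CPM of 10 skeletal muscle genes such as Acta1 and Ckm was 3.85 to 191 in HFD-fed mice and 1367 to 10892 in LFD-fed mice, and all 10 were lower with none at 0. In an edgeR fit that also held the mean log2 CPM of these muscle genes, the log2 fold change of Tlr5 was -1.02 (SE 0.53). That of the other 9 members was -0.86 to 0.06. Since the muscle genes did not overlap between the diets, muscle content and diet cannot be told apart. The summed CPM of 4 monocyte genes, 225 to 707 with HFD and 44.9 to 217 with LFD, that of 6 dendritic cell genes, 47.9 to 57.5 and 24.2 to 43.4, and that of 10 T and NK cell genes, 16.3 to 34.3 and 2.49 to 9.66, did not overlap either. Their part in the levels of the receptors was not tested. The sums of neutrophil (29.2 to 111 and 8.94 to 78.8), B cell (4.89 to 6.68 and 1.34 to 6.28), endothelial (361 to 858 and 363 to 420) and fibroblast genes (3868 to 9033 and 2914 to 30864) overlapped, and the neutrophil gene Ly6g alone of these markers was at 0 in a mouse. All 6 fibroblast genes, such as Col1a1 and Dcn, had negative fold changes with a median of -1.29, and 2 of them did not overlap between the diets. Their part in the lower level of Tlr5 was not tested. The 10 brown adipocyte genes, among them Ucp1, were present in every mouse, with sums of 4238 to 13613 and 1894 to 13139 CPM. Their fold changes were positive for 7 and negative for 3, with a median of 1.63. Those of the endothelial genes were positive for 5 and negative for 1, with a median of 0.84. The median of the 10 receptor genes was 0.83, so a positive median was not particular to the receptors.

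Beyond the receptors, 70 genes of their pathway were examined, of which 67 could be tested. At an unadjusted p under 0.05 in edgeR, 12 were higher with HFD and 0 lower, where 3.86% of all tested genes were higher and 6.62% lower, and none met the study's rule. With DESeq2 that rule was met by 5 of the 67, all higher: Il10, Ccl4, Ccl5, Cxcl9 and Cxcl10. Of all genes that DESeq2 could adjust, 0.523% met it in the higher direction and 1.5% in the lower. The study had reported Ccl4, Ccl5, Cxcl9, Cxcl10 and Tnf as higher in these same mice. All 5 genes that it reported are among the 12, so neither count is independent evidence. Positive fold changes were found for 53 of the 67, with a median of 0.44. With the replicate block, 25 were higher and 1 lower at that level, where 8.75% and 8.76% of all genes were.

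Co-receptors bring ligands to the receptors. Cd180, a relative of Tlr4 that acts with Ly86, was at 10.8, 28.9 and 41.5 TPM with HFD and at 1.19, 8.99 and 15.8 TPM with LFD, a log2 fold change of 1.94 (SE 0.71, adjusted p = 0.410 by edgeR). It was the 1 of 6 co-receptors with an unadjusted p under 0.05, where 3.86% of all tested genes were higher at that level. The partners of Tlr4 were closer between the diets: Cd14, which hands over lipopolysaccharide, had a log2 fold change of 0.38, Ly96, which binds it, of 0.48, and Lbp, its carrier in plasma, of -0.97. Cd36, a fatty acid transporter that also serves Tlr2, had a value of 0.20, and Ly86 of 0.72.

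The chaperones and proteases that serve the endosomal receptors had 0 of 6 genes with an unadjusted p under 0.05 in edgeR. Unc93b1, which carries the nucleic acid receptors to endosomes, was at 54.5, 77.1 and 115.7 TPM with HFD and 23.4, 106.4 and 126.6 TPM with LFD, and its log2 fold change was 0.32. Ctss and Lgmn, endosomal proteases that cut these receptors, had log2 fold changes of 1.47 and 1.11, Slc15a4, an endosomal transporter, of 0.63, and Hsp90b1 and Cnpy3, chaperones for folding, of 0.04 and -0.16.

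The adaptors that bind the TIR domain had 0 of 6 genes at that level as well. Myd88, used by nearly all members, had a log2 fold change of 0.53, Ticam1, used by Tlr3 and Tlr4, of 0.48, and their bridging adaptors Tirap and Ticam2 of -0.05 and 0.44. Pik3ap1, an adaptor to phosphoinositide 3-kinase, had the largest value at 1.46, and Sarm1, at 0.09 to 0.33 TPM in all mice, had -0.55. Of the 16 kinases and ubiquitin ligases 0 passed, with a median log2 fold change of 0.13, and Ikbke, a kinase upstream of interferon regulatory factors, was the highest at 1.10.

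Of 10 transcription factors of the pathway, 4 had an unadjusted p under 0.05, and all were higher. At that level 3.86% of all tested genes were higher and 6.62% lower in edgeR. Fos, of AP-1, was at 17.6, 39.4 and 63.9 TPM with HFD and at 2.59, 14.4 and 22.7 TPM with LFD, a log2 fold change of 1.98 (adjusted p = 0.296 by edgeR). Irf5 had a log2 fold change of 1.31 (adjusted p = 0.406), Irf7 of 1.29 (adjusted p = 0.445) and Jun of 0.96 (adjusted p = 0.413), by the same edgeR test. The NF-kB genes Nfkb1, Nfkb2, Rela, Relb and Rel had values of -0.00 to 0.78. Among 9 inhibitors Tnfaip3, which removes ubiquitin from the pathway, was higher by 1.01 (adjusted p = 0.326 by edgeR), and Irak3, a kinase-like brake in macrophages, had -0.47.

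The genes that the pathway induces had the highest median log2 fold change of the lists. Of 17, 14 were tested, 13 were positive and 6 had an unadjusted p under 0.05, all higher, with a median log2 fold change of 2.12. Of all tested genes 45.6% were positive, and 3.86% were higher at that p in edgeR. With the 4 chemokines below and Tnf left out, the median of the other 9 was 1.44, 8 were positive and 1, Il10, had such a p. Tnf was at 1.69, 3.30 and 9.73 TPM with HFD and at 0.04, 1.17 and 1.22 TPM with LFD, a log2 fold change of 2.95 (adjusted p = 0.337 by edgeR). Il10, an anti-inflammatory cytokine, was at 2.10, 3.84 and 5.60 TPM with HFD and 0.36, 1.34 and 1.96 TPM with LFD, a log2 fold change of 1.97 (adjusted p = 0.215 by edgeR). The chemokines Ccl4, Ccl5, Cxcl9 and Cxcl10 had log2 fold changes of 4.10, 2.71, 2.37 and 2.66 and adjusted p-values of 0.188 to 0.266 by edgeR. By DESeq2 their adjusted p-values were 0.000315, 0.00488, 0.000938 and 0.00562, and that of Il10 was 0.00309. The study singled out these chemokines and Tnf on these same mice, so their direction is no independent evidence. Ccl4 was listed at 0 in LFD replicate 1. The adjusted p of Cxcl10 with the replicate block was 0.0306 by edgeR. That fit rests on pairs that the labels do not state and that were taken from these same data. Cd80, Cd86 and Cd40, costimulatory molecules, had values of -0.13 to 0.59. Il12a, Il12b and Ifnb1 had too few counts to be tested.

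**Figure D5:**
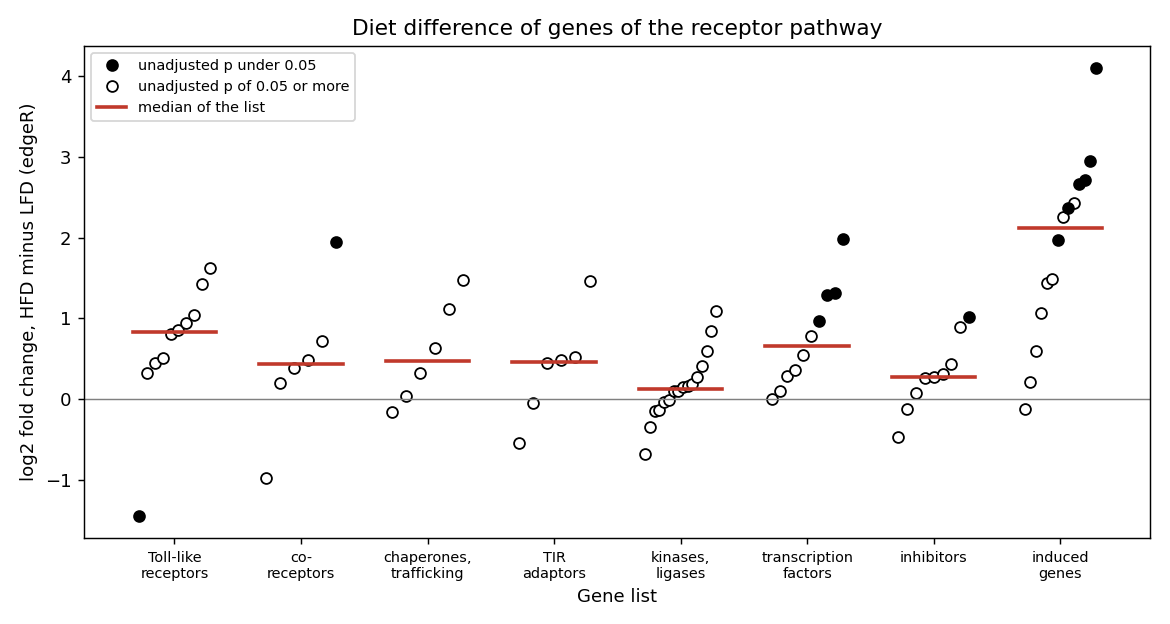
Log2 fold change, HFD minus LFD, of the 10 Toll-like receptor genes and of the tested genes of 7 lists of their pathway (edgeR), with filled points for an unadjusted p under 0.05 and red bars for list medians. The induced genes have the highest median, 2.12, and the kinases and ligases the lowest, 0.13. Tlr5 at -1.45 is the lowest of the points.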

How the data were processed

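BAT RNA of 3 HFD-fed and 3 LFD-fed mice was analysed, with diet and replicate number taken from the labels. The authors trimmed reads with Trimmomatic 0.36 and quantified them with RSEM 1.3.0 on GRCm38.p4, and the authors deposited expected counts and TPM for each gene. The deposited files also hold the posterior SD of the count and the bounds of the TPM interval, which were treated as scores. Whether counting used strand is not given in the sources used here.

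The members and the gene lists were chosen with earlier results of these data known. All 10 members were named, and of each pathway list the members with the largest fold changes in either direction, every gene with an unadjusted p under 0.05, and the co-receptors, chaperones and adaptors. The named Cd40, Cd80, Cd86, the NF-kB genes and the genes too low to test were added after their values were seen. Expected counts were rounded and fitted in R 4.3.3 with edgeR 4.0.16 (quasi-likelihood test, TMM, filterByExpr, Benjamini-Hochberg over 17668 genes). A prior count of 2 went into log2 CPM. The SE given with edgeR fold changes was calculated as the absolute log2 fold change over the square root of the F statistic. Deviations of same-numbered mice from their diet means correlated at 0.498, 0.229 and 0.522 over genes, so the label numbers were taken to pair the mice, although the labels state no pairing. Alternatives used RLE factors, no factors, 2 other filters on low counts, no mitochondrial and ribosomal RNA genes, a replicate block, macrophage or muscle scores, DESeq2 1.42.0, limma 3.58.1 on log2(TPM + 1) and log2(TPM + 0.1), and leaving out each mouse. Counting intervals cover counting error only, since reads carried no molecular identifiers. Gene positions are from GENCODE on GRCm38. The fits were tested on simulated counts.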

Additional observations from a re-analysis of the deposited data

How the results depend on the processing

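With 3 mice per diet, an exact permutation test cannot go below 0.1. The edgeR count of called genes was 0, and also 0 when any 1 mouse was left out. It was 411 with DESeq2 at the same thresholds, and 1851 genes had an unadjusted p under 0.05. The fold change of Tlr5 stayed negative in each of 17 alternatives. That of Tlr8 stayed positive in each of 17, although with the muscle score it was 0.06 with an SE of 0.86, so its sign there is uncertain. With the muscle score as a covariate the values of 8 members turned negative: Tlr1 -0.14, Tlr2 -0.86, Tlr3 -0.015, Tlr4 -0.23, Tlr6 -0.48, Tlr7 -0.48, Tlr9 -0.22 and Tlr13 -0.10, and these 8 stayed positive in the other 16. The cause was not tested. The number of members whose diets did not overlap, 5 in log2 CPM, was 1 in TPM and 1 without normalization factors. Fold changes without these factors were added after seeing the data. It was 5 to 7 when a mouse was left out, where 19.6% to 35.0% of all genes did not overlap. The fold change of Tlr5 then ranged from -1.55 to -1.37. Without LFD replicate 3 its adjusted p was 0.0511, and without HFD replicate 2 it was 0.485. The replicate block gave 0 called genes at the study's thresholds, and 184 genes had an adjusted p under 0.05 where 0 had one without it. Beside Tlr8, Tlr13 and the pathway genes counted in the report, it changed no call of a member. The lowest counts, 18.05 for Tlr6 and 19.98 for Tlr1 in LFD replicate 1, limit the precision of both.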

Other observations

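The other mouse receptors of this family that were listed, Tlr11 and Tlr12, which sense profilin of protozoa, were near the limit of detection in BAT. Tlr11 was at 0.27, 0.39 and 0.42 TPM in HFD replicates 1 to 3 and at 0.28, 0.67 and 0.40 TPM in LFD replicates 1 to 3, with a log2 fold change of -0.13 (SE 0.40, adjusted p = 0.960 by edgeR). Tlr12 was at 0.28, 0.23 and 0.91 TPM in the HFD-fed mice, at 0.30 TPM in LFD replicate 2 and listed at 0 in LFD replicates 1 and 3, and it had too few counts to be tested.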
